A study of Mus musculus with 17 samples.

Results

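The CC chemokines studied in infarcted mouse hearts were Ccl2, Ccl3, Ccl4, Ccl6, Ccl7, Ccl8, Ccl9, Ccl11, Ccl12 and Ccl24, which made up 10 of the 31647 features in the count table. They were given by name, and each was found by its Ensembl identifier. Transcripts were counted by massive analysis of cDNA ends (MACE), a 3′ mRNA sequencing method, in cardiac tissue taken 5 days after surgery from 17 male C57BL/6J wild-type mice aged 8 to 11 weeks. The infarct zone (IZ) was sampled in 9 mice whose left anterior descending coronary artery had been tied off for good, a model without reperfusion. Left ventricular tissue was sampled in 8 control mice that had a sham operation, in which no artery was tied.

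Chemokines are small secreted proteins that guide leukocytes, and the CC family is named for a pair of neighbouring cysteines near its amino terminus. CC ligands bind G protein-coupled receptors, and their best known action in the injured heart is the recruitment of monocytes: Ccl2 and its relatives Ccl7 and Ccl12 draw monocytes mainly through Ccr2. Ccl8 is close to these in sequence and position, but in the mouse its receptor use differs. Ccl6 and Ccl9 are rodent ligands of Ccr1, Ccl3 and Ccl4 are inflammatory ligands made by activated leukocytes, and Ccl11 and Ccl24 are eotaxins, which attract eosinophils through Ccr3.

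The genes lie close together in the mouse genome (GRCm38, which is mm10). On chromosome 11, 5 of them sat within 81.2 kb on the plus strand, in the order Ccl2 (chr11:82035571-82037453), Ccl7 (chr11:82045712-82047525), Ccl11 (chr11:82057823-82062955), Ccl12 (chr11:82101845-82103400) and Ccl8 (chr11:82115185-82116799). A second cluster of 4 genes spanned 91.8 kb and began 1456.1 kb further along, with Ccl9 (chr11:83572919-83578636), Ccl6 (chr11:83587882-83593087) and Ccl3 (chr11:83647844-83649355) on the minus strand and Ccl4 (chr11:83662584-83664683) on the plus strand. Ccl24 stood apart on chromosome 5 (chr5:135569937-135573049, minus strand). Each is a protein-coding gene of 3 exons, or of 4 exons for Ccl6 and Ccl9. Over the 45 pairs, the coding sequences most alike were those of Ccl8 and Ccl12 (71.0% identity over 290 aligned bases), Ccl3 and Ccl4 (70.0% over 273) and Ccl6 and Ccl9 (69.3% over 345). No annotated transcript of another gene matched the last 500 bases of any of the 10 at 95% identity over 100 bases or more. Ccl2 and Ccl6 overlapped a gene on the opposite strand (Gm17268 and E230016K23Rik), and the count table listed antisense counts as features of their own.

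Promoter sequences, from 250 bases before to 50 bases after the start, were matched in RefSeq (GRCm38.p6) for 5 of the 10 genes, namely Ccl3, Ccl6, Ccl8, Ccl9 and Ccl12. Those of Ccl6 and Ccl9 are shown because these neighbours were the most abundant of the 10 genes and varied together between infarct zones. They aligned over 244 bases at 61.9% identity, with 3 identical runs of 10 bases or more, printed in capitals, of which the longest had 13 bases. The other 9 pairs among the 5 promoters shared no run of that length, at identities of 45.3% to 61.3%.
Ccl6 (chr11:83593038-83593337, minus strand): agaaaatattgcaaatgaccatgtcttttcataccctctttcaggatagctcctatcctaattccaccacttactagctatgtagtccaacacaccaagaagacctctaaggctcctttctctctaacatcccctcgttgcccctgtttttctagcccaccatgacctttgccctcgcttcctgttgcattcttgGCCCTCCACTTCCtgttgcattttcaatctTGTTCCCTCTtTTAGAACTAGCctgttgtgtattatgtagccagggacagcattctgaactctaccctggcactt
Ccl9 (chr11:83578587-83578886, minus strand): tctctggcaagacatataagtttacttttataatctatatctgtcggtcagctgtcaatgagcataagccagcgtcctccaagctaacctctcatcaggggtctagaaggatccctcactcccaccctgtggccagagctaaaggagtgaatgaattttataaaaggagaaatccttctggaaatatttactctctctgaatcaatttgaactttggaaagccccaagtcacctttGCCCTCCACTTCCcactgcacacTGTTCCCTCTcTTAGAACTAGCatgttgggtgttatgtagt
The promoters of Ccl8 and Ccl12 are shown as the next pair in identity (61.3% over 282 bases), with the letters TATAAA in capitals. They stood at bases -32 to -27 before the start of Ccl8 and at -31 to -26 before that of Ccl12.
Ccl8 (chr11:82114935-82115234, plus strand): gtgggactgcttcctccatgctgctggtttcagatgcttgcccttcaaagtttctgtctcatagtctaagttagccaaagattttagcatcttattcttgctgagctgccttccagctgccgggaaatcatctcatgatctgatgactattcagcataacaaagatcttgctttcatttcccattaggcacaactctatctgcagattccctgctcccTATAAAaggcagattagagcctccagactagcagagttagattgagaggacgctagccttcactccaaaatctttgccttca
Ccl12 (chr11:82101595-82101894, plus strand): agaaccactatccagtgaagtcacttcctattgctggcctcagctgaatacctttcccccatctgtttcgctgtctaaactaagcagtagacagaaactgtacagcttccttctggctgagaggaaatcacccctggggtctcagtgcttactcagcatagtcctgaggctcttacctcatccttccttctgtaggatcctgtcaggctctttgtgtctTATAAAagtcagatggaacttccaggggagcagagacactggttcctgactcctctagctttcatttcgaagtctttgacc
On either strand, TATAAA was found in 13.6% of 32851 promoters of the same length, and among the 5 chemokine promoters in those of Ccl8, Ccl12 and Ccl9. The NF-kappaB consensus (8.46% of all promoters) and the AP-1 letters TGANTCA (7.81%) were found in the Ccl9 promoter alone, without overlapping each other, and the PU.1 letters GAGGAAGT (3.2%) in none of the 5. These matches describe letters in a window and are not measured binding sites.

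Library totals ran from 1237675 to 4738307 counts. Levels are given as CPM, the counts per 1000000 counts of a library whose size was scaled by the TMM method. MACE counts a transcript once at its 3′ end, so CPM can be set side by side between genes without a correction for length. In the sham libraries 3 counts, taken as the limit of detection, were worth 1.155 to 2.375 CPM. The summed CPM of 7 cardiomyocyte markers, such as Myh6 and Tnnt2, was 53520 to 66690 in sham and 2569 to 24950 in the IZ. IZ replicate 1 held the highest of these IZ values and also stood apart by its mitochondrial share of 19.45% of counts, against 4.223% to 6.779% in the other 8 IZ libraries and 22.94% to 32.39% in sham.

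Transcripts of the 10 CC chemokines together were 6.307 times as abundant in the IZ as in sham left ventricle, or 13.64 times as abundant with total counts in place of the scaled library size. Their summed level was 56.74 ± 9.81 CPM (SD, n = 8) in sham, with a range of 46.15 to 71.26, and 357.9 ± 172.1 CPM (SD, n = 9) in the IZ, with a range of 146.04 to 709.996. The groups did not overlap, and IZ replicate 3 was the highest and IZ replicate 1 the lowest of the infarct zones. In this bulk tissue, more cells of a type and more RNA per cell cannot be told apart.

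**Figure D1:**
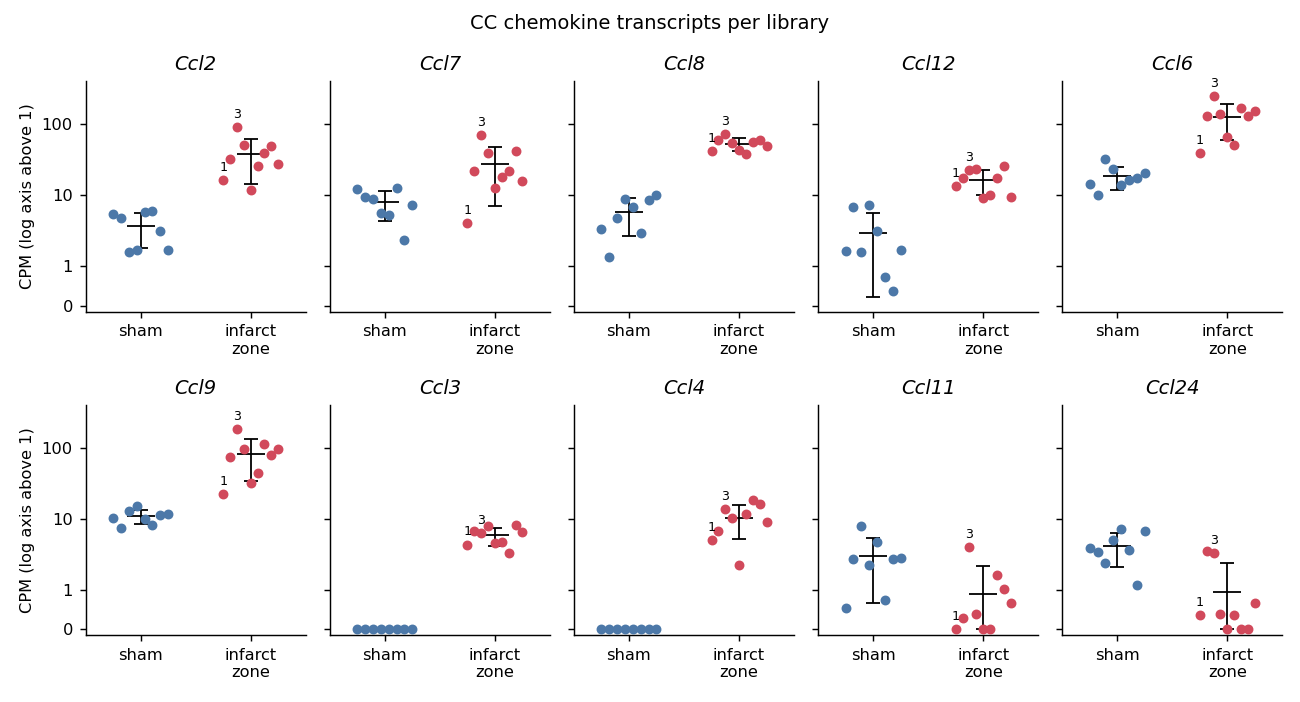
CPM of each CC chemokine in 8 sham (blue) and 9 infarct zone (red) libraries, 1 point per library, with the mean and SD in black (the lower bar stops at 0); the axis is logarithmic above 1 CPM, and infarct zone replicates 1 and 3 are numbered. Ccl3 and Ccl4 are at 0 in every sham library, 7 genes have every infarct zone point above every sham point, and Ccl11 and Ccl24 are the genes whose infarct zone mean lies below the sham mean.

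Of the 10 genes, 8 passed the filter on low counts and entered the edgeR test, and all 8 of these rose in the IZ. Across the 12301 genes tested, 69.5% were called in either direction and 36.3% were called higher. Every IZ library lay above every sham library for 7 of the 8, which held for 16.6% of the genes tested. Ccl6 and Ccl9 exceeded the filter's minimum in all 8 sham libraries. Ccl2, Ccl3, Ccl4, Ccl7, Ccl8 and Ccl12 passed it through the IZ libraries, so the count over the 8 is not evidence of its own. Ccl11 and Ccl24 did not pass.

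Of the 5 genes in the first cluster, Ccl2, Ccl7, Ccl8 and Ccl12 rose from low sham levels. Ccl11, with a coding sequence about as close to that of Ccl2 (65.6% identity) as Ccl8 has (64.2%), did not rise and is given with Ccl24 below. Ccl2, the best studied monocyte chemoattractant, had 1.58, 3.92 and 5.88 CPM as its lowest, median and highest sham values and 11.9, 31.7 and 90.5 CPM in the IZ. The groups were separate, and IZ replicate 3 was well above the next library at 50.3 CPM. The log2 fold change was 3.37 ± 0.40 (SE, edgeR adjusted p = 8.17e-08), the highest among the 6 tested genes with counts in both groups.

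Ccl8, a relative of Ccl2 in sequence, was the most even of the 8 tested genes between infarct zones. Its sham levels were 1.36, 5.74 and 9.998 CPM (lowest, median, highest) and its IZ levels 37.4, 54.0 and 71.5 CPM. The highest IZ library was 1.913 times the lowest, and the SD of log2 CPM over the IZ libraries was 0.301, against a median of 0.343 over the tested genes that averaged 5 CPM or more there. The log2 fold change was 3.10 ± 0.23 (SE, edgeR adjusted p = 6.86e-11).

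Ccl12, a mouse relative of Ccl2, had 0.385, 1.65 and 7.25 CPM in sham and 9.06, 17.3 and 25.3 CPM in the IZ. The groups were separate, and the log2 fold change was 2.55 ± 0.38 (SE, edgeR adjusted p = 2.36e-06). Sham levels were at the limit of detection, with more than 3 counts in 3 of the 8 libraries.

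Ccl7, which lies next to Ccl2 and attracts monocytes too, was the rising gene whose groups overlapped. It had 2.31, 7.965 and 12.5 CPM in sham and 3.99, 21.7 and 70.0 CPM in the IZ, where the highest library was 17.57 times the lowest. The IZ libraries of replicates 1 (3.99 CPM) and 5 (12.5 CPM) fell within the sham range, and the other 7 lay above it. The log2 fold change was 1.88 ± 0.42 (SE, edgeR adjusted p = 0.000422). It was 2.002 without IZ replicate 1 and 1.55 without IZ replicate 3, and past the threshold in both.

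The Ccr1 ligands Ccl6 and Ccl9 were the most abundant of the 10 genes in both groups. Ccl6 had 10.2, 16.75 and 31.7 CPM in sham and 39.1, 129 and 247 CPM in the IZ, with a log2 fold change of 2.77 ± 0.32 (SE, edgeR adjusted p = 5.18e-08). Ccl9 had 7.47, 10.8 and 15.1 CPM in sham and 22.5, 77.5 and 182 CPM in the IZ, with a log2 fold change of 2.92 ± 0.34 (SE, edgeR adjusted p = 5.78e-08). In both genes the groups were separate, and IZ replicates 1, 5 and 6 held the 3 lowest IZ values. The highest IZ library was 6.3 times the lowest for Ccl6 and 8.084 times for Ccl9, and the SDs of log2 CPM were 0.875 and 0.938.

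Ccl3 and Ccl4, the macrophage inflammatory proteins, were counted in the IZ libraries alone. Neither had a count in any of the 8 sham libraries. Ccl3 had 6 to 48 counts in the IZ libraries, or 3.25, 6.26 and 8.26 CPM (lowest, median, highest), and Ccl4 had 4 to 82 counts, or 2.27, 10.3 and 18.4 CPM. Against a floor of 3 counts in each sham library, Ccl3 was at least 3.256-fold higher in the IZ and Ccl4 at least 5.788-fold higher. The edgeR adjusted p was 3.81e-08 for Ccl3 and 3.85e-07 for Ccl4. Ccl4 varied more between infarct zones, with a highest to lowest ratio of 8.138 against 2.539 for Ccl3.

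**Figure D2:**
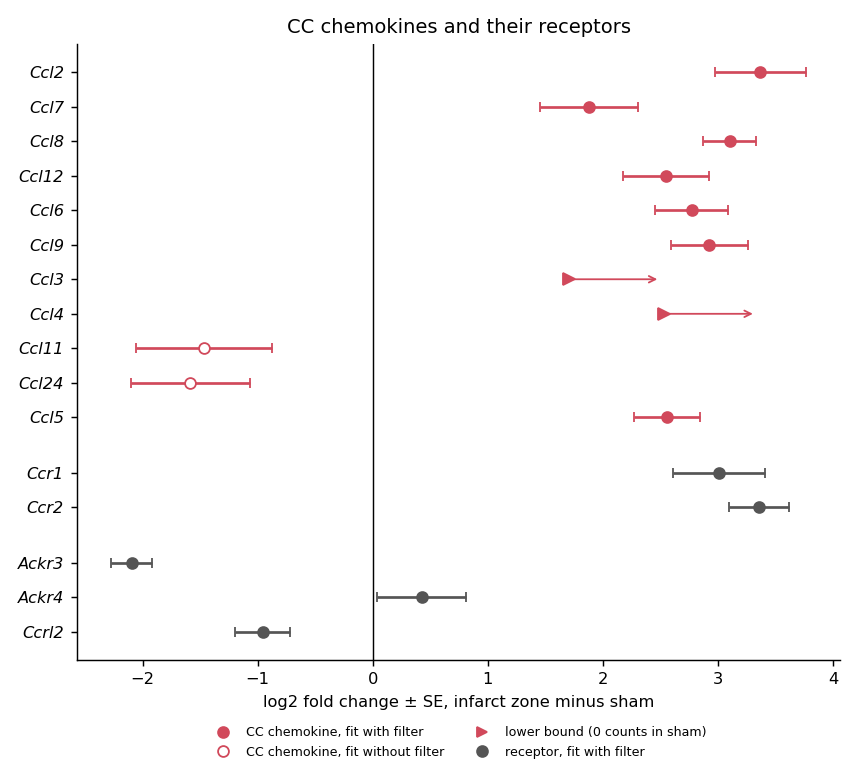
Log2 fold change (IZ minus sham) with SE for the CC chemokines (red) and for the CC receptors Ccr1 and Ccr2 and the tested atypical receptors (grey); open points come from the fit without a filter, and triangles with arrows mark lower bounds for Ccl3 and Ccl4, which had 0 counts in sham. Among the chemokines with counts in both groups Ccl2 has the highest value (3.37), Ccl11 and Ccl24 lie below 0, and Ackr3 is the lowest of the receptors at -2.09.

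The eotaxins went the other way. Ccl24 had 1.16, 3.75 and 7.25 CPM in sham and 0, 0.363 and 3.48 CPM in the IZ, and 7 of the 9 IZ libraries lay below every sham library. The others were IZ replicates 2 and 3, at 3.48 and 3.30 CPM. Ccl11 had 0.547, 2.705 and 7.92 CPM in sham and 0, 0.396 and 3.96 CPM in the IZ, with 5 of the 9 IZ libraries below every sham library and IZ replicate 3 the highest. Many of the IZ values rest on 0 to 3 counts in a library.

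Because the filter left both genes out, they were read from a fit of the 27668 genes with at least 1 count, in which 17.6% were called lower. There Ccl24 had a log2 fold change of -1.59 ± 0.52 (SE, edgeR adjusted p = 0.0122) and Ccl11 one of -1.47 ± 0.59 (SE, edgeR adjusted p = 0.0451). With total counts in place of the scaled library size, which moved the median of all genes tested in the filtered fit from 0.05 to 1.14, neither was past the threshold: Ccl24 was at -0.60 (adjusted p = 0.303) and Ccl11 at -0.46 (adjusted p = 0.486). The Ccl11 call was lost in 11 of the 17 fits that left out a library (range -2.57 to -1.17). Without IZ replicate 3 the value was -2.57 (adjusted p = 0.000733), and without sham replicate 3 it was -1.17 (adjusted p = 0.142). Ccl24 remained past the threshold in all 17, from -2.11 to -1.43.

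In infarct zones the order of mean levels was Ccl6 (124 CPM), Ccl9 (81.8), Ccl8 (52.2), Ccl2 (37.9), Ccl7 (27.2), Ccl12 (16.5), Ccl4 (10.35) and Ccl3 (5.82), with Ccl24 and Ccl11 under 1 CPM. The ranges of each pair of neighbours in that order overlapped. In sham the order was Ccl6 (18.4 CPM), Ccl9 (10.8), Ccl7 (7.88), Ccl8 (5.81), Ccl24 (4.17), Ccl2 (3.73), Ccl11 (3.035) and Ccl12 (2.89), again with overlapping neighbours. Within every library of either group, however, Ccl6 was above Ccl9.

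**Figure D3:**
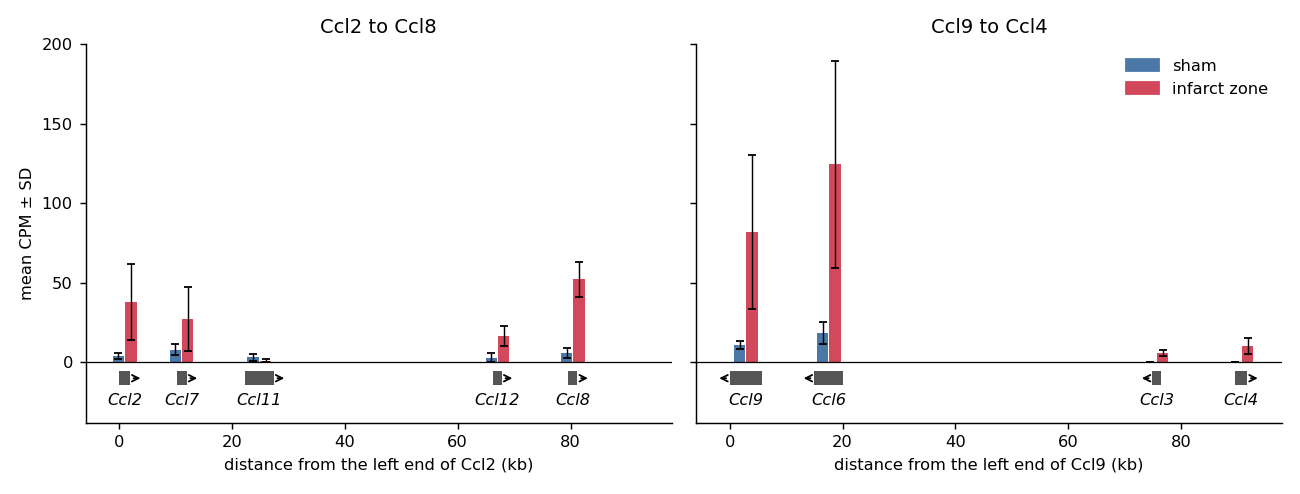
Mean CPM with SD of the 9 chromosome 11 genes in sham (blue, n = 8) and infarct zone (red, n = 9), placed by distance in kb from the left end of Ccl2 (left panel) or of Ccl9 (right panel); grey boxes are the genes and arrows their strand. Ccl11, whose mean was 3.035 CPM in sham and 0.885 CPM in the IZ, is the gene of the first cluster with the lower infarct zone mean, between neighbours that rose.

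As shares of the 10 genes' summed counts in a library, which do not depend on scaling, the transcripts of the eotaxins were a smaller part of the IZ pool and those of Ccl3 and Ccl4 were present there alone. Ccl6 made up 31.9% ± 7.13 (SD, n = 8) of the counts in sham and 33.8% ± 5.39 (SD, n = 9) in the IZ, and Ccl9 made up 19.0% ± 2.81 and 21.7% ± 3.75. For both of these the ranges overlapped. Ccl24 went from 7.33% ± 3.41 in sham to 0.24% ± 0.319 in the IZ, and Ccl11 from 5.15% ± 3.4 to 0.171% ± 0.193. For each eotaxin, all 9 IZ libraries were below all 8 sham libraries, IZ replicate 3 included. The denominator holds the genes that rose, so a share can fall where the level does not: in IZ replicate 3 Ccl11 was at 3.96 CPM, above the sham mean of 3.035 CPM.

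Among Ccl2, Ccl7, Ccl8 and Ccl12, the share of Ccl7 was 14.3% ± 7.5 (SD, n = 8) in sham and 7.05% ± 2.7 (SD, n = 9) in the IZ, with 2 of 9 IZ libraries below the sham range. The share of Ccl8 was 10.1% ± 5.44 in sham and 16.7% ± 5.8 in the IZ, with 3 of 9 above the sham range. Ccl2 stood at 7.07% ± 4.09 and 10.3% ± 2.31, and Ccl12 at 5.13% ± 4.94 and 5.07% ± 1.91. Ccl3 and Ccl4, without counts in sham, made up 1.89% ± 0.717 and 3.04% ± 1.41 of the IZ counts. Shares were described and not tested.

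**Figure D4:**
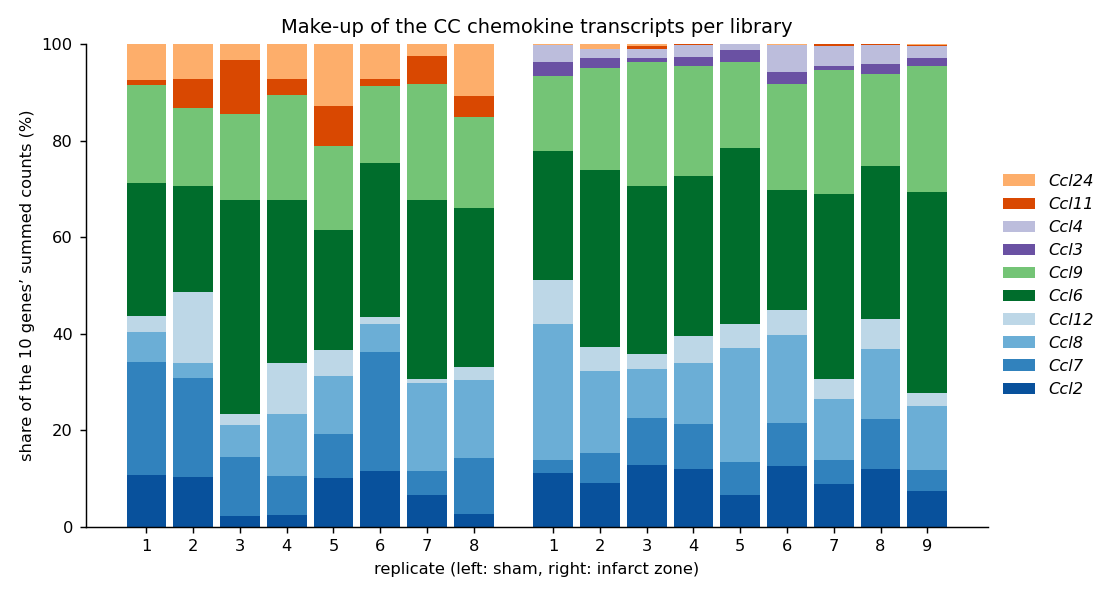
Share (%) of each CC chemokine in the 10 genes' summed counts, 1 bar per library, sham replicates on the left and infarct zone replicates on the right. Ccl11 and Ccl24 (orange) together fill the top of every sham bar and are thin or missing in the infarct zone bars, where Ccl3 and Ccl4 (purple) appear.

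The receptors Ccr2 and Ccr1 were higher in the IZ too, as 36.3% of all genes tested were. Of 10 listed CC receptors 3 were tested, and 1 of these is not reported here. Ccr2, the main receptor of Ccl2, Ccl7 and Ccl12, had 2.59, 4.61 and 9.50 CPM in sham and 33.3, 57.8 and 91.65 CPM in the IZ, a log2 fold change of 3.35 ± 0.26 (SE, edgeR adjusted p = 1.22e-10). Ccr1, which binds Ccl3, Ccl6 and Ccl9, rose by 3.01 ± 0.40 on the log2 scale (SE, edgeR adjusted p = 4.65e-07). For both of these the 9 IZ libraries lay above the 8 sham libraries. Ccr1 had 1 to 6 counts in a sham library and passed the filter through the IZ libraries. Ccr3, the eotaxin receptor, was close to absent from both groups, with 3 counts over all sham libraries and 0 to 4 counts in an IZ library. In a fit without the filter Ccr7 was higher (3 counts over all sham libraries, 6 to 17 in an IZ library, edgeR adjusted p = 3.35e-06). Ccr3, Ccr4, Ccr6, Ccr8, Ccr9 and Ccr10 were not called there.

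Atypical receptors bind chemokines without signalling through G proteins, and of 5 listed genes 3 were tested. Ackr3, a scavenger of the CXC chemokine Cxcl12, fell by 2.09 on the log2 scale (SE 0.18, edgeR adjusted p = 5.51e-10), from a mean of 92.7 CPM to 21.7 CPM. Ccrl2, which presents chemerin, fell by 0.96 (SE 0.24, edgeR adjusted p = 0.000948). Across all genes tested 33.1% were called lower. Ackr4, a scavenger of Ccl19, Ccl21 and Ccl25, was at 0.42 ± 0.39 and did not pass (edgeR adjusted p = 0.339). Ackr1 and Ackr2 were left out by the filter. Ackr1 had 3 counts over all sham libraries and 0 to 11 in an IZ library, and was higher in the fit without a filter (edgeR adjusted p = 0.00789). Ackr2 was at -0.13 ± 0.57 there (SE, edgeR adjusted p = 0.866).

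Among 15 further CC ligands, 8 had a row of their own and 1 was tested. This was Ccl5, a T cell and monocyte attractant that shares Ccr1 with Ccl3, at 0.679, 2.21 and 3.345 CPM in sham and 7.05, 11.5 and 20.2 CPM in the IZ (log2 fold change 2.55 ± 0.29, SE, edgeR adjusted p = 4.36e-08). The fit without a filter called 10664 of 27668 genes, 54.29% of them higher. There Ccl17 was higher (2 counts over all sham libraries, 2 to 56 in an IZ library, edgeR adjusted p = 1.69e-07). Ccl22 was higher too (0 counts in sham, 0 to 6 in an IZ library, edgeR adjusted p = 0.00126). Ccl1, Ccl20, Ccl25, Ccl27b and Ccl28 were not called there. Of 17 listed genes for inducing cytokines and the NF-kappaB pathway, which drives several of these chemokines, 9 were tested and 5 were called, all higher, where 69.5% of all genes tested were called and 36.3% were called higher. The median of the 9 was 0.35, against 0.05 over all genes tested. The called values ran from 0.35 ± 0.12 for Rela, an NF-kappaB subunit (SE, edgeR adjusted p = 0.0118), to 2.93 ± 0.54 for the cytokine Il1b (SE, edgeR adjusted p = 4.17e-05).

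Summed markers of monocytes and macrophages and of neutrophils were higher in the IZ, as most of the chemokines were. The part of these cells in the differences between the groups was not tested. All 12 monocyte and macrophage markers were called higher (36.3% of all genes tested were), and their summed level was 462.4 to 654.8 CPM in sham and 2668 to 6376 CPM in the IZ. Of 8 neutrophil markers 4 were tested, and these 4 were called higher, against the same 36.3%. They passed the filter through the IZ libraries, with medians of 5 counts or fewer in sham, so this count is not evidence of its own. The neutrophil sums were 5.0 to 12.3 CPM in sham and 15.9 to 219.6 CPM in the IZ. Ly6g, the defining marker, was at 0 in sham and at most 0.362 CPM in the IZ. None of the 6 eosinophil markers was tested. Their sums were 0 to 2.375 CPM in sham and 0 to 3.965 CPM in the IZ, and Siglecf and Epx had no count in sham. In the IZ, Epx had 1 count in all, while Siglecf had up to 12 counts in a library and none in 1 of the 9 (edgeR adjusted p = 0.00167 in the fit without a filter). None of 9 lymphocyte markers was tested, at sums of 0.792 to 4.41 CPM in sham and 4.88 to 18.4 CPM in the IZ.

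The chemokines were also set against the summed macrophage markers, whose mean was 9.078 times as high in the IZ as in sham. A large part of this sum was Lyz2, with a mean of 258.7 of 532.2 CPM in sham and 2742 of 4832 CPM in the IZ. By marker, the ratio of means ran from 1.531 for Ly6c2 to 21.87 for Ms4a7. Per 1000 CPM of the summed markers, Ccl2 stood at 7.196 ± 3.96 (SD, n = 8) in sham and 7.77 ± 4.45 (SD, n = 9) in the IZ, and Ccl8 at 11.03 ± 6.24 and 11.15 ± 2.78. Ccl6 stood at 34.3 ± 10.1 and 25.4 ± 12.6, Ccl9 at 20.3 ± 4.66 and 16.7 ± 9.53, and Ccl12 at 5.51 ± 5.26 and 3.49 ± 1.26. The ranges of the groups overlapped for each of these 5 genes, with 3 of 9 IZ libraries below every sham library for Ccl6 and 4 of 9 for Ccl9. Ccl7 was at 14.9 ± 7.19 in sham and 5.38 ± 3.76 in the IZ, with 5 of 9 IZ libraries below every sham library. Ccl24, at 7.91 ± 3.93 and 0.201 ± 0.289, and Ccl11, at 5.45 ± 3.6 and 0.177 ± 0.261, had all 9 IZ libraries below sham, against a denominator that was itself higher in the IZ. Ccl3 and Ccl4 went from 0 to 1.22 ± 0.281 and 2.15 ± 1.06. These ratios are a description of the libraries and were not tested. They were not computed for other genes, and a gene with a level CPM would fall on this measure too.

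Between the 9 infarct zones the chemokines differed widely, and many pairs varied together, within and between the 2 clusters. Log2 CPM of all 45 pairs correlated positively, with a median Pearson's r of 0.613, and the libraries share their scaling. The 45 pairs were tested together with 30 relations to marker sums, by exact two-sided permutation with adjustment over the 75. By Pearson's r 19 relations had an adjusted p under 0.05, of which 16 were pairs of chemokines, and 2 had one by Spearman's rho as well. These 2 were neighbours in the genome, but others came close. Ccl2 with Ccl9, from different clusters, had r = 0.888 (exact permutation p = 0.00173, adjusted 0.0259) and rho = 0.867 (exact permutation p = 0.00451, adjusted 0.0564). The neighbours Ccl7 and Ccl11 did not pass by r (0.737, exact permutation p = 0.0224, adjusted 0.0672). The 16 pairs included Ccl11 with each of Ccl2, Ccl6, Ccl8 and Ccl9, and Ccl11 had a median of 2 counts in the IZ libraries. The share over pairs of other genes was not computed, so the 16 are not read as particular to these chemokines.

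The closer of the 2 pairs that passed by both measures was Ccl6 with Ccl9, which lie 9.2 kb apart. Their values were r = 0.967 (exact permutation p = 0.000198, adjusted 0.0149) and rho = 0.95 (exact permutation p = 0.000353, adjusted 0.0265). The other was Ccl2 with Ccl7, which lie 8.3 kb apart, at r = 0.88 (exact permutation p = 0.00247, adjusted 0.0298) and rho = 0.933 (exact permutation p = 0.00075, adjusted 0.0281). Without the 2 libraries farthest from the median of the first gene, r was 0.995 for Ccl6 and Ccl9 (IZ replicates 1 and 6 left out) and 0.955 for Ccl2 and Ccl7 (IZ replicates 3 and 5 left out). Ccl6 and Ccl8, from different clusters, had r = 0.896 (exact permutation p = 0.00137, adjusted 0.0259) and rho = 0.717 (exact permutation p = 0.0369, adjusted 0.115), with r at 0.82 without IZ replicates 1 and 6. Being neighbours did not go with such values in every case: Ccl3 and Ccl4, 13.2 kb apart, had r = 0.168 (exact permutation p = 0.668, adjusted 0.696) and rho = 0.117 (exact permutation p = 0.776, adjusted 0.797), with r at 0.602 without IZ replicates 1 and 7.

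**Figure D5:**
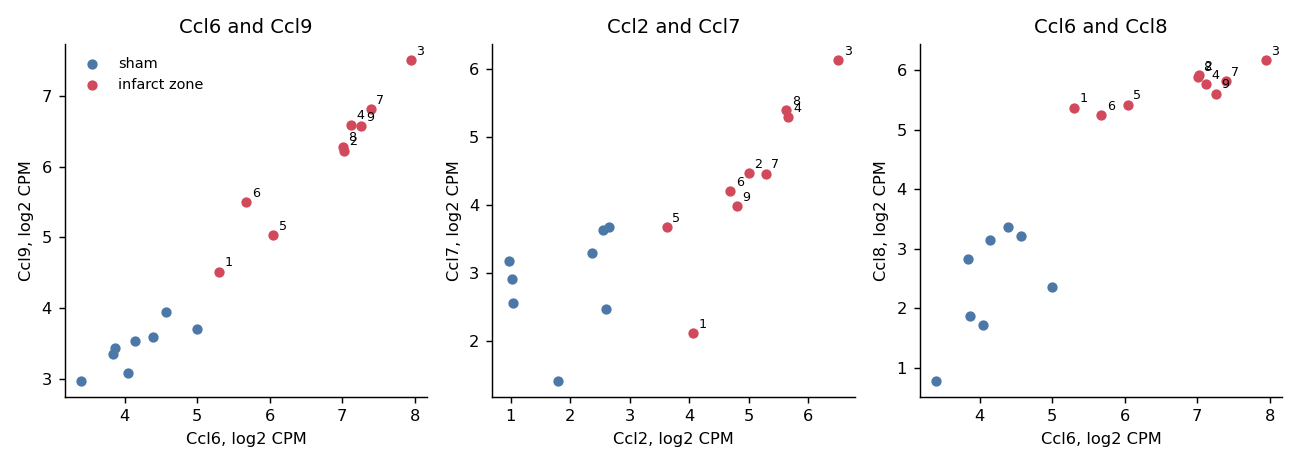
Log2 CPM of Ccl6 against Ccl9, Ccl2 against Ccl7 and Ccl6 against Ccl8, 1 point per library (blue, sham; red, infarct zone, numbered by replicate). The infarct zone points lie close to a line for Ccl6 and Ccl9 (r = 0.967), replicate 1 lies below the others for Ccl7, and Ccl8 spans a narrow range while Ccl6 spans a wide one.

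Of the marker sums, that of the macrophages was related to none of the 10 chemokines at an adjusted p under 0.05 over these 9 libraries, and that of the cardiomyocytes to none either. With 9 libraries this does not show that a relation was absent. Pearson's r was positive for all 10 with the macrophage sum (median 0.44) and for none with the cardiomyocyte sum (median -0.502). The largest in size were with Ccl7, at 0.754 (exact permutation p = 0.0296, adjusted 0.0842) and -0.786 (exact permutation p = 0.0184, adjusted 0.0626). They were 0.115 without IZ replicates 1 and 8 and -0.304 without IZ replicates 1 and 4. The neutrophil marker sum averaged 86.77 CPM in the IZ, mostly from S100a8 (34.2 CPM), S100a9 (22.4) and Csf3r (20.1). Cxcr2, Retnlg, Ly6g and Ngp averaged 0.987 CPM or less there. This sum was related by Pearson's r to Ccl6 (r = 0.814, exact permutation p = 0.00629, adjusted 0.0337) and to Ccl9 (r = 0.833, exact permutation p = 0.00554, adjusted 0.0337). By rank these did not pass, at rho = 0.733 for Ccl6 (exact permutation p = 0.0311, adjusted 0.114) and rho = 0.783 for Ccl9 (exact permutation p = 0.0172, adjusted 0.0861). Without IZ replicates 3 and 7, r was 0.736 and 0.754. A further relation by Pearson's r was with Ccl11, whose IZ counts were mostly 0 to 3 (r = 0.81, exact permutation p = 0.0082, adjusted 0.0362; rho = 0.728, exact permutation p = 0.032, adjusted 0.114; r = 0.593 without IZ replicates 3 and 7).

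For the 4 most abundant genes, the patterns most alike over the 9 IZ libraries were looked up among 9126 tested genes that averaged 10 CPM or more. They were Ms4a6b (a membrane protein of the MS4A family, Pearson's r = 0.968) and Syk (a tyrosine kinase of immune receptors, 0.967) for Ccl6, and Pak1 (a kinase of the actin cytoskeleton, 0.967) and Tra2b (a splicing factor, 0.966) for Ccl9. For Ccl8 they were Nup62 (a nuclear pore protein) and Rap1a (a small GTPase), both at 0.952. For Ccl2 they were Mphosph6 (a cofactor of the RNA exosome, 0.944) and Cse1l (a nuclear export factor, 0.941). With 9 libraries and this many candidates, such values are a description and were not tested.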

How the data were processed

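MACE-seq was performed on heart tissue from 8 sham-operated mice and 9 mice with infarction, 1 library per mouse. Reads carried unique molecular identifiers. The submitters' processing notes name bcl2fastq, Bowtie2, HTSeq, DESeq2 and the genome build mm10; the annotation release and the treatment of reads with several matches are not given in the sources used here. The authors deposited raw counts per feature, without normalisation. Groups were taken from the labels.

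Counts were tested with edgeR 4.0.16 (R 4.3.3) by the two-sided quasi-likelihood F-test, with TMM scaling, filterByExpr (minimum count 10) and Benjamini-Hochberg adjustment over all 12301 genes tested (threshold 0.05). CPM is relative to TMM-scaled library sizes, and correlations use log2 CPM with a prior count of 1. The SE is the absolute log2 fold change divided by the square root of F. The script was tested on simulated data. Alternatives were other scalings, the Wald test of DESeq2 1.42.0, other filters, thinning, a block for the replicate number, and fits that left out 1 library each. The labels give no batch. Transcripts came from GENCODE M21 and were searched with BLAST 2.17.0. Intervals and floors cover counting error only.

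The genes and lists were chosen with earlier results of these data known. Named were all 10 chemokines, tested receptors (1 is not reported here) and further CC ligands, the called inducers with the highest and lowest fold change, and, for the 4 chemokines with the highest IZ mean, the 2 genes of at least 10 CPM with the highest Pearson's r. Ackr1, Ackr2, Siglecf, Epx, Lyz2, Ly6c2, Ms4a7 and the single neutrophil markers were named after their values were seen. So were Ccr3 and the other CC receptors and further CC ligands read from the fit without a filter.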

Additional observations from a re-analysis of the deposited data

Results flagged for a closer look

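Each chemokine was checked in each group for a library apart from the rest, by Dixon's criterion at the 95% level, in 18 groups of values that were not all 0. Chance alone flags about 1 in 20 such groups. In 2 of them a library stood apart, in both cases IZ replicate 3. Ccl2 was at 90.5 CPM there, against 50.3 CPM in the next library, a gap of 0.511 of the group's range. Ccl11 was at 3.96 CPM there, against 1.63 CPM in the next library, a gap of 0.589 of the range. Without this library the log2 fold change of Ccl2 was 3.09 (edgeR adjusted p = 2.94e-08) in place of 3.37.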

How the results depend on the processing

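All 186 alternative fits of the 8 tested chemokines, counted where the gene entered the fit, kept the direction and stayed past the threshold. Ccl3 and Ccl4 did not pass the filter when all libraries were thinned to the smallest total, so they were not tested at equal depth. Ccl3, Ccl4 and Ccl12 did not reach a minimum mean of 50 counts. Ccl4 did not pass the filter in 8 of the 17 fits that left out a library. Without IZ replicate 1, the values of the tested chemokines with counts in both groups ran from 2.002 for Ccl7 to 3.44 for Ccl2. The number of genes called was 8544, between 7962 and 8614 when each library was left out, and 5239 of 6734 with a minimum mean of 50 counts, which tests fewer genes. With total counts as library sizes it was 10727, 85.79% of them higher, against 52.32% with TMM, and the summed chemokine level was 523.7 CPM in the IZ and 38.4 CPM in sham. Upper quartile scaling shifted the median of all genes to 0.167. Against a floor of 3 counts over the whole sham group, the bounds were 27.26-fold for Ccl3 and 48.46-fold for Ccl4.

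Replicate numbers name different mice in the 2 groups. Same-numbered libraries had correlations of -0.216 to 0.128 between their deviations, and 1 of 8 sham libraries correlated best with its own number. The fit with the replicate number as a block left out IZ replicate 9, which has no sham library of its number. In it 7883 genes were called, Ccl4 did not pass the filter, and the calls of the other 9 chemokines did not change (Ccl11 and Ccl24 without a filter). Without IZ replicate 9 and without a block, 8153 genes were called and Ccl4 did not pass the filter either. The alternatives for Ccl11 and Ccl24 in the fit without a filter were chosen after seeing the data. With sham levels of a few counts per library, smaller differences in Ccl11, Ccl12 and Ccl24 were not detectable at this depth.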
